A study of Danio rerio with 8 samples.

Results

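Of the 22871 genes in the deposited count table, 70 carry a symbol of the solute carrier families slc1a, slc3a, slc6a, slc7a, slc36a, slc38a or slc43a followed by a number, and these are the amino acid and transmitter uptake transporter genes described here. Membership was decided by the symbol alone, though earlier results of these data were known when the members were chosen. Of these, 69 encode a carrier or its heavy chain, and the last, *slc7a6os*, encodes a nuclear protein named for its position beside *slc7a6*. *SLC6A13* and a gene listed as SLC7A1 (1 of many) are written in capitals in the annotation and fell outside the rule. RNA was sequenced from whole brains of *psap* knockout (KO) zebrafish and of their wild-type (WT) siblings, with 4 libraries per genotype. All fish were of the TuAB strain, untreated and 4 months old, and each library was made from a pool of 3 brains, fish of both sexes having been used in the study. The KO fish were homozygous for an insertion that places a premature stop early in *psap*, the gene for the lysosomal saposins, and the line descends from a single founder allele. According to the study, genotypes were housed in separate tanks at similar densities once fin clips had been taken. It describes the KO fish at this age as being at the symptomatic end stage of disease. Effects of genotype, tank and late illness therefore cannot be told apart in these libraries.

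Solute carriers of these families move amino acids and amino acid derived transmitters across the plasma membrane and the lysosomal membrane. In the brain, slc1 and slc6 carriers clear glutamate, GABA, glycine and monoamines from the space around synapses, mostly by coupling uptake to the sodium gradient. The slc7 light chains exchange amino acids and usually reach the surface only when joined to a heavy chain of the slc3 family. The slc38 carriers move glutamine and other small neutral amino acids, and some slc38 and slc36 members sit on the lysosome, where amino acids feed the mTORC1 growth pathway.

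Levels are given in CPM, the reads of a gene scaled to library size with TMM factors, and 4 values in a row stand for replicates 1 to 4. Libraries held 17562422 to 25127578 assigned reads in *psap* KO brains and 15332163 to 23480758 in WT brains. No transcript lengths were used, so levels are compared between libraries of a gene and not between genes. Differences are log2 fold changes of *psap* KO over WT from edgeR's quasi-likelihood test, and a gene was called at a Benjamini-Hochberg adjusted p under 0.05 over the 21140 genes tested. The counts of *psap* do not separate mutated from unmutated transcripts. The gene stood at 416, 381, 403 and 450.4 CPM in *psap* KO brains and at 342, 369.8, 416 and 384 CPM in WT brains. These ranges overlap (log2 fold change 0.13, adjusted p = 0.206 by edgeR's quasi-likelihood test), so the level of *psap* did not check the genotype labels. The study itself reported the mutations in the *psap* reads of KO brains, which gene counts cannot show. Genes that mark neurons, glia and vessels of a brain were detected, and lists of such markers moved between the genotypes, as given beside the results. In a whole brain, fewer cells of a type and less RNA per cell cannot be told apart.

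The transporters moved in both directions, and most changes were modest. Of 68 transporter genes tested, *psap* KO brains had 22 (32.4%) at a higher and 15 (22.1%) at a lower level, and 31 were not called. Over all genes tested, 40.8% were called, 22.3% as higher and 18.5% as lower. The median log2 fold change was 0.02 over the transporters and 0.02 over all genes, and the median size of the change was 0.38 over the transporters and 0.30 over all genes on the log2 scale. Changes of at least 1 on the log2 scale were called for 6 transporters (8.82%), against 10.5% of all genes. *slc7a7*, *slc43a3b*, *slc43a2b* and *slc7a9* were the higher ones, and *slc3a1* and *slc1a9* the lower ones. Every *psap* KO library lay above every WT library for 22 transporters and below every WT library for 16, together 55.9% of those tested, against 40.3% of all genes. Of these 38, 36 were also called. Libraries without overlap always give p = 0.0286 in the exact two-sided permutation test, the smallest value that 4 against 4 allow. That test therefore adds nothing for these genes. By family, 2 of 10 tested slc1 genes were higher and 2 lower, 1 of 3 slc3 genes higher and 1 lower, 6 of 19 slc6 genes higher and 6 lower, 5 of 16 slc7 genes higher and 3 lower, and 4 of 11 slc38 genes higher and 3 lower. In the slc36 and slc43 families 1 of 2 and 3 of 6 were higher and none was lower. Whether these shares differ from those of other genes was not tested. The summed level of all 70 genes was 5224 to 5679 CPM in *psap* KO brains and 5532 to 6107 CPM in WT brains.

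**Figure D1:**
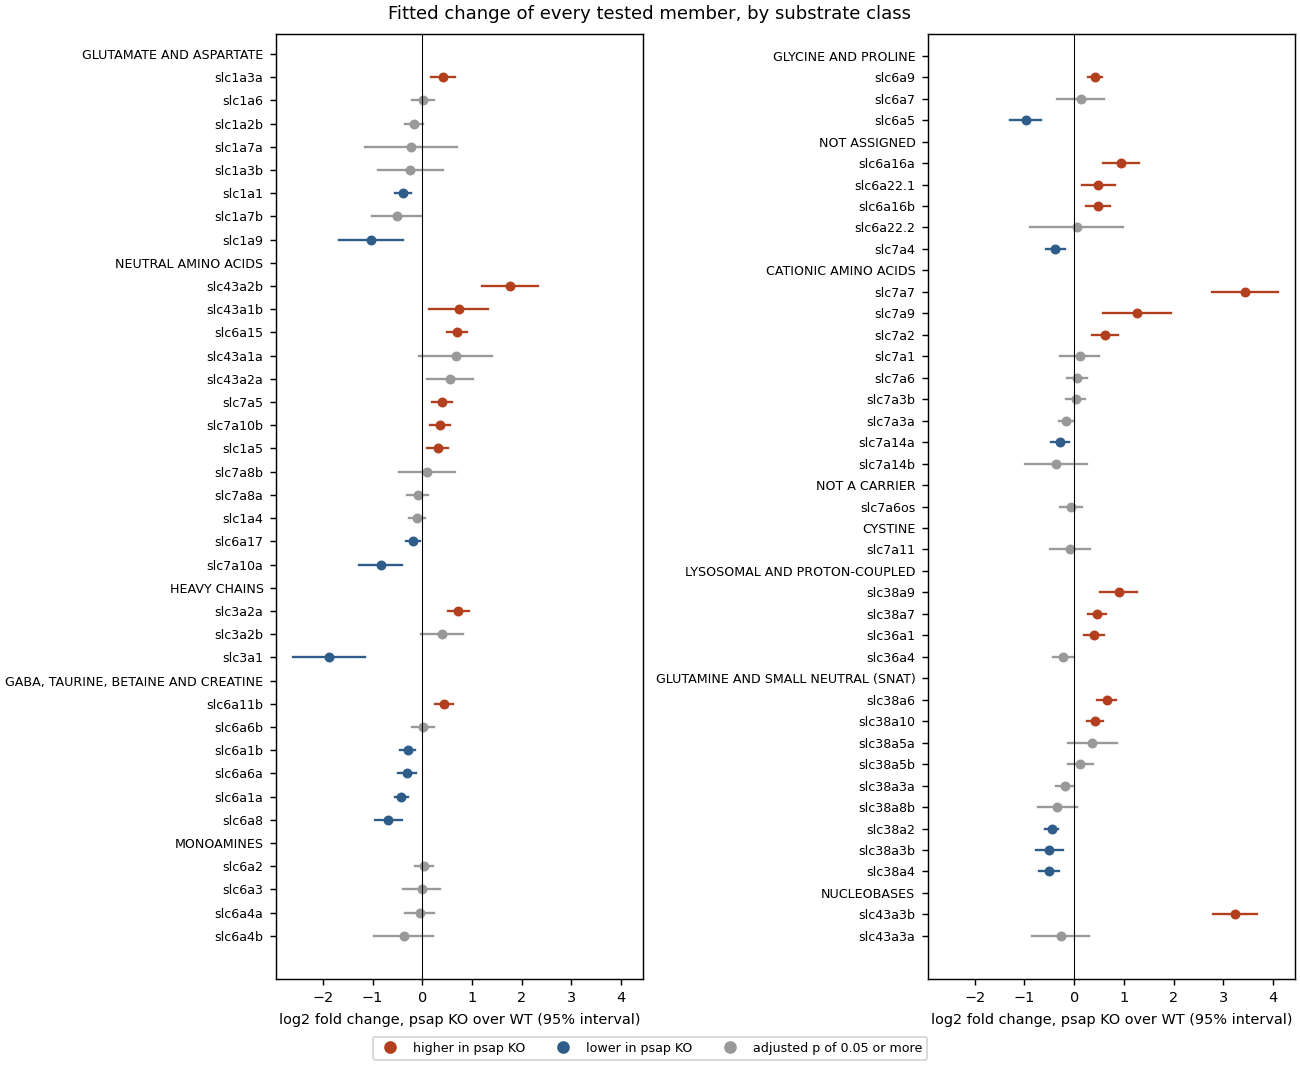
Fitted log2 change (x axis, *psap* KO over WT) with its 95% interval for each tested transporter gene, grouped by substrate, in red where called higher, blue where called lower and grey where not called. Points right of 0 are higher in *psap* KO brains. *slc7a7* and *slc43a3b* lie farthest to the right at 3.43 and 3.24, and *slc3a1* farthest to the left at -1.88. Of the monoamine carriers, *slc6a2*, *slc6a3* and *slc6a4a* lie around 0. *slc6a4b* lies at -0.38, with a wide interval that includes 0.

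Among the glutamate carriers, the neuronal carrier gene *slc1a1* was lower and the glial *slc1a3a* was higher in *psap* KO brains, while the main glial carrier gene *slc1a2b* was not called. *slc1a1* encodes the carrier that neurons use to take up glutamate and cysteine. Its level was 37.4, 42.1, 42.2 and 44.8 CPM in *psap* KO brains and 50.1, 57.4, 56.3 and 53.7 CPM in WT brains. All KO libraries were below all WT libraries (log2 fold change -0.38, SE 0.0763, adjusted p = 0.00161 by edgeR's quasi-likelihood test). *slc1a2b*, of the GLT-1 type that clears most synaptic glutamate in mammals, had 683, 764, 753 and 617 CPM in *psap* KO brains and 773, 805, 861 and 732 CPM in WT brains. The ranges overlapped, and the 95% interval of the log2 fold change ran from -0.35 to 0.01 (adjusted p = 0.115).

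The GLAST-type glial carrier has a pair of paralogs in zebrafish, and these differed in their spread. *slc1a3a* had 23.2, 22.1, 26.6 and 31.2 CPM in *psap* KO brains and 18.03, 19.2, 21.6 and 18.3 CPM in WT brains, with no overlap (log2 fold change 0.42, adjusted p = 0.0106 by edgeR's quasi-likelihood test). *slc1a3b* ranged widely among *psap* KO brains, at 149.6, 96.0, 66.5 and 146 CPM, and stood at 120.2, 106, 156 and 158 CPM in WT brains. Its interval, -0.89 to 0.41, leaves room for a change in either direction. *slc1a6*, a carrier of Purkinje cells in mammals, had a log2 fold change of 0.01 (95% interval -0.22 to 0.24). *slc1a9*, a fish member of the family, had few reads, with 0.613, 0.836, 1.12 and 0.728 CPM in *psap* KO brains and 2.27, 1.82, 1.496 and 1.21 CPM in WT brains. It was called lower at -1.03 (adjusted p = 0.0147 by edgeR's quasi-likelihood test), but without WT replicate 1 the call was lost (-0.86, adjusted p = 0.0535, against 0.00996 to 0.0535 over all alternatives). *slc1a7a* and *slc1a7b*, carriers of retinal type, were not called.

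Among the GABA carriers in the symbol rule, the GAT-1 genes, which serve mainly the terminals of GABA neurons, were lower and the GAT-3 gene, which serves astroglia, was higher. *slc6a1a* had 166, 163, 173 and 158 CPM in *psap* KO brains and 209, 213, 238 and 223 CPM in WT brains, with all KO libraries below all WT libraries. The difference was -0.42 on the log2 scale (SE 0.0632, adjusted p = 0.000213 by edgeR's quasi-likelihood test). Its paralog *slc6a1b* had 426, 464, 518 and 497 CPM in *psap* KO brains and 564, 572, 608 and 587 CPM in WT brains, again without overlap (log2 fold change -0.29, adjusted p = 0.0054). *slc6a11b*, of the GAT-3 type, had 361, 385, 389 and 402 CPM in *psap* KO brains and 263, 248, 311 and 316 CPM in WT brains. Here every KO library was above every WT library (log2 fold change 0.43, SE 0.0837, adjusted p = 0.00129). *SLC6A13*, of the GAT-2 type and outside the symbol rule, was not called at 0.19 (adjusted p = 0.1597).

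The remaining members of this group carry taurine and creatine, and none was higher. The creatine transporter gene *slc6a8* had 92.3, 74.7, 72.9 and 57.0 CPM in *psap* KO brains and 126, 122, 122 and 105 CPM in WT brains, without overlap (log2 fold change -0.68, adjusted p = 0.00114 by edgeR's quasi-likelihood test). Of the taurine transporter paralogs, *slc6a6a* was lower at -0.30 (adjusted p = 0.0108), and *slc6a6b* was not called at 0.02 (95% interval -0.20 to 0.23). Marker levels moved alongside these carriers. Of 8 GABA neuron markers 4 were lower, namely *gad1a*, *gad1b*, *gad2* and *slc32a1*, while the 4 *dlx* genes were not called, and the summed level of the list was 961.8 to 1103 CPM in *psap* KO brains and 1769.6 to 1944 CPM in WT brains. Of 11 pan-neuronal markers 10 were lower (3915 to 4117 CPM in *psap* KO brains, 5468 to 5730 CPM in WT brains). Of 10 radial astroglia markers 7 were higher (4385 to 5284 CPM in *psap* KO brains, 2898 to 3523 CPM in WT brains). No marker of these lists was at 0 in a genotype, and their part in the carrier results was not tested.

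Of the glycine carrier genes, the neuronal *slc6a5* was lower and the glial *slc6a9* higher. GlyT2, encoded by *slc6a5*, refills the terminals of glycinergic neurons of hindbrain and spinal cord. Its gene had 46.2, 49.3, 44.3 and 68.3 CPM in *psap* KO brains and 88.3, 96.0, 120.4 and 105 CPM in WT brains. The genotypes did not overlap (log2 fold change -0.98, 95% interval -1.29 to -0.66, adjusted p = 0.000333 by edgeR's quasi-likelihood test), the largest decrease among the transmitter carriers named here apart from *slc1a9*. GlyT1, encoded by *slc6a9*, is mainly glial, and its gene had 260.5, 264, 265 and 239 CPM in *psap* KO brains and 178, 195, 199 and 201 CPM in WT brains. Every KO library was higher (log2 fold change 0.41, SE 0.0642, adjusted p = 0.000284). The brain proline carrier gene *slc6a7* was not called at 0.13 (95% interval -0.34 to 0.60).

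No monoamine carrier gene was called. The noradrenaline transporter gene *slc6a2* had 21.7, 24.9, 25.1 and 25.6 CPM in *psap* KO brains and 23.0, 25.8, 22.8 and 23.4 CPM in WT brains. The dopamine transporter gene *slc6a3* had 4.79, 5.68, 4.57 and 5.09 CPM in *psap* KO brains and 6.21, 3.71, 5.45 and 4.88 CPM in WT brains. The genotypes overlapped for both, with 95% intervals of -0.14 to 0.22 and of -0.38 to 0.36 on the log2 scale. For the serotonin transporter paralogs *slc6a4a* and *slc6a4b* the intervals were -0.34 to 0.24 and -0.97 to 0.22, with *slc6a4b* at 1.01 to 1.99 CPM in *psap* KO brains and 1.51 to 2.24 CPM in WT brains. Among 9 markers of monoamine neurons, 3 were higher and 2 were lower, with a summed level of 74.7 to 81.5 CPM in *psap* KO brains and 71.1 to 77.5 CPM in WT brains. The higher ones were *dbh*, *pcbd1* and *ddc* (log2 fold changes 0.91, 0.40 and 0.30), and the lower ones *tph1a* and *th2* (-0.79 and -0.65). *th*, the rate-limiting enzyme gene of catecholamine synthesis, was not called (log2 fold change -0.10).

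**Figure D2:**
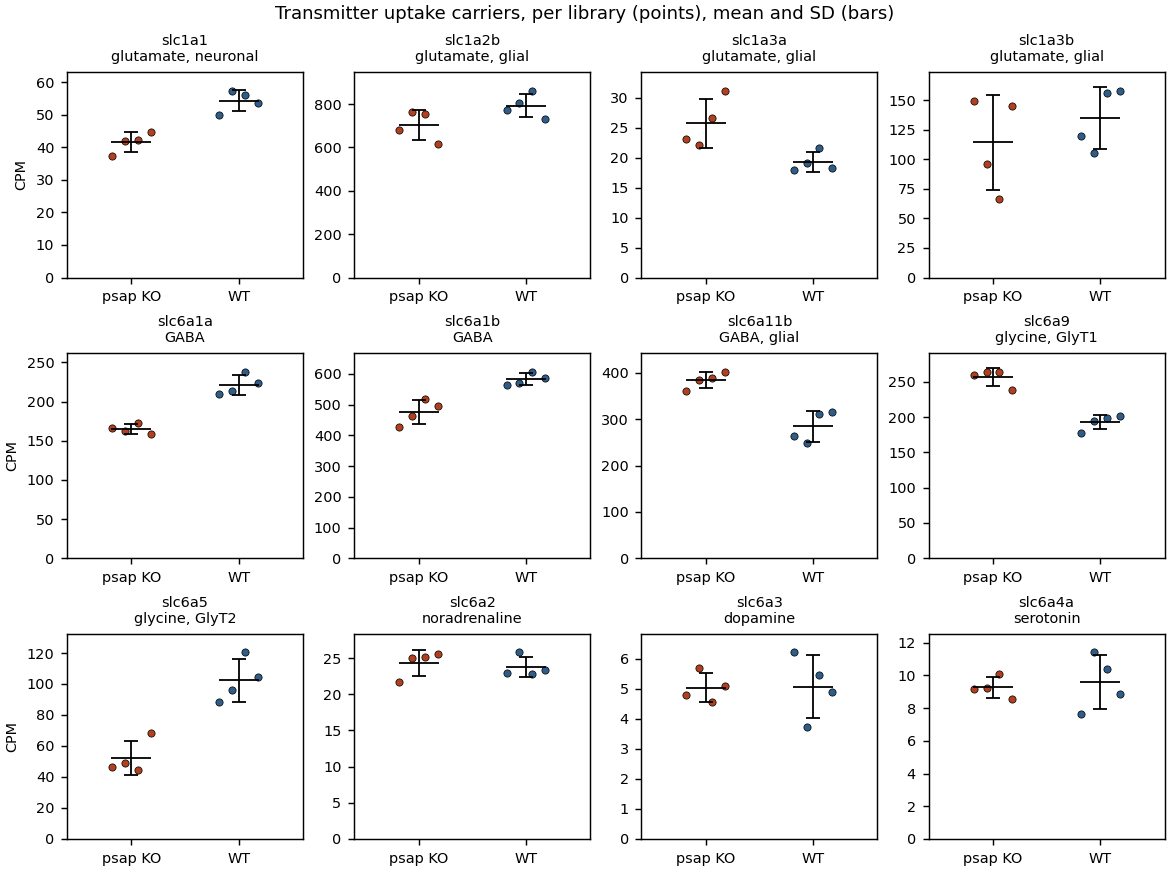
Level of 12 transmitter carrier genes in every library (y axis, CPM from 0; points), *psap* KO left of WT, with bars at the mean and SD of 4 libraries. *slc6a1a*, *slc6a1b*, *slc6a5* and *slc1a1* are lower and *slc6a11b*, *slc6a9* and *slc1a3a* higher in every *psap* KO library, while *slc6a2*, *slc6a3* and *slc6a4a* overlap between genotypes.

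The heavy chains went in opposite directions. *slc3a2a*, a gene for CD98hc, the heavy chain of the large neutral and y+L carriers, was higher, and *slc3a1*, the gene for the rBAT heavy chain that pairs with the cystine carrier of kidney and gut, was lower. *slc3a2a* had 71.8, 80.7, 92.9 and 91.7 CPM in *psap* KO brains and 52.8, 43.5, 54.1 and 54.0 CPM in WT brains (log2 fold change 0.72, SE 0.0976, adjusted p = 9.64e-05 by edgeR's quasi-likelihood test). Its paralog *slc3a2b* had 237, 141, 239.9 and 157 CPM in *psap* KO brains and 126, 140.0, 162 and 161 CPM in WT brains. Replicates 1 and 3 of *psap* KO stood above all WT libraries and the others among them, and the gene was not called (0.40, adjusted p = 0.117). Without *psap* KO replicate 2 it was called at 0.52 (adjusted p = 0.0225, within 0.0225 to 0.264 over all alternatives). *slc3a1* had 2.00, 1.63, 1.07 and 0.498 CPM in *psap* KO brains and 4.81, 3.71, 4.44 and 5.77 CPM in WT brains. No KO library reached the lowest WT library, and the difference of -1.88 on the log2 scale (SE 0.333, adjusted p = 0.000805) was the largest decrease among the transporters tested.

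*slc7a7*, the gene for the y+LAT1 light chain that exports cationic amino acids in exchange for neutral ones, showed the largest increase of the 68 tested transporters. Its level was 18.4, 14.1, 17.7 and 15.4 CPM in *psap* KO brains and 0.81, 1.08, 1.19 and 2.84 CPM in WT brains. The groups were far apart, with a fold change of 10.8 (log2 fold change 3.43, SE 0.299, adjusted p = 9.85e-06 by edgeR's quasi-likelihood test). Next came *slc43a3b*, whose human counterpart encodes a purine nucleobase carrier rather than an amino acid carrier, with 26.8, 18.2, 23.2 and 31.0 CPM in *psap* KO brains and 2.86, 1.82, 3.34 and 2.33 CPM in WT brains. The fold change was 9.44 (log2 fold change 3.24, SE 0.203, adjusted p = 3.74e-07), again without overlap. *slc7a7* is known as a gene of macrophages and microglia in zebrafish. In the same libraries 13 of 14 microglia and macrophage markers rose, the median over the list being 2.21 on the log2 scale, and their summed level was 1865 to 2122 CPM in *psap* KO brains and 292 to 379.8 CPM in WT brains. The markers *csf1ra*, *csf1rb* and *apoeb* were at 69.7, 19.4 and 1457 CPM on average in *psap* KO brains and at 21.5, 9.34 and 138 CPM in WT brains. None of the markers was at 0, and their part in the results for *slc7a7* and *slc43a3b* was not tested.

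Of the other cationic amino acid and cystine carriers, *slc7a2*, *slc7a9* and *slc7a14a* were called. *slc7a2*, which takes up arginine in activated macrophages and liver of mammals, had 15.5, 15.7, 20.2 and 14.4 CPM in *psap* KO brains and 10.5, 11.4, 9.59 and 11.3 CPM in WT brains (log2 fold change 0.62, adjusted p = 0.0014 by edgeR's quasi-likelihood test). *slc7a9*, the light chain that joins the rBAT heavy chain in mammals, had 0.835, 1.94, 1.80 and 1.46 CPM in *psap* KO brains and 0.648, 0.607, 0.704 and 0.558 CPM in WT brains. It was higher at 1.26 (adjusted p = 0.00678), while its heavy chain gene *slc3a1* was lower. *slc7a9* had few reads, 134 in the *psap* KO and 49 in the WT libraries together. *slc7a14a*, counted with the cationic carriers, was lower at -0.28 (adjusted p = 0.0162), a call lost without WT replicate 3 (adjusted p = 0.0579, the highest over all alternatives). The arginine carrier genes *slc7a1*, *slc7a3a* and *slc7a3b*, as well as *slc7a6* and *slc7a14b*, were not called, with log2 fold changes of -0.37 to 0.11. The gene listed as SLC7A1 (1 of many), outside the symbol rule, was called higher at 0.38 (adjusted p = 0.0123), with every *psap* KO library above every WT library. *slc7a11*, the light chain of the cystine and glutamate exchanger xCT, had 14.6, 16.2, 22.9 and 12.6 CPM in *psap* KO brains and 16.3, 13.7, 20.2 and 19.5 CPM in WT brains. These overlapped, and the 95% interval of its log2 fold change was -0.49 to 0.33.

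Carriers of large neutral amino acids were higher where they were called in the slc7a5 and slc43 groups. *slc7a5*, the gene for LAT1, which carries leucine and other large amino acids across the blood-brain barrier, had 106, 85.6, 79.6 and 85.6 CPM in *psap* KO brains and 66.1, 67.2, 72.5 and 65.3 CPM in WT brains. All KO libraries were higher (log2 fold change 0.40, SE 0.0882, adjusted p = 0.00328 by edgeR's quasi-likelihood test). The genes for LAT2, *slc7a8a* and *slc7a8b*, were not called, with intervals of -0.30 to 0.12 and -0.46 to 0.66. *slc43a2b*, of the LAT4 type, had 26.7, 16.2, 23.7 and 11.9 CPM in *psap* KO brains and 5.18, 4.79, 5.85 and 7.16 CPM in WT brains, a fold change of 3.38 (log2 fold change 1.76, SE 0.251, adjusted p = 0.000349). Its paralog *slc43a2a* had 80.3, 53.9, 88.0 and 48.0 CPM in *psap* KO brains and 40.8, 40.6, 46.7 and 55.6 CPM in WT brains and was not called (0.55, adjusted p = 0.0586), although 6 of 15 alternative settings called it (0.0118 to 0.159). In *slc3a2b*, *slc43a2a* and *slc43a2b* alike, *psap* KO replicates 1 and 3 had the higher levels and replicates 2 and 4 the lower ones. The order is not particular to these genes, which were picked with their values in view. *slc7a8a* had it too, at 190.9, 161.7, 202.0 and 152.1 CPM in *psap* KO brains, as did *slc7a1* and *slc7a3b*. *slc43a1b*, of the LAT3 type, was at 1.73, 1.14, 1.46 and 1.11 CPM in *psap* KO brains and 0.81, 0.81, 0.924 and 0.698 CPM in WT brains, and its call (0.73, adjusted p = 0.048) was lost in 12 of 14 alternative settings (adjusted p of 0.0401 to 0.131). Of 10 endothelial markers 6 were higher, with a summed level of 421 to 526 CPM in *psap* KO brains and 318 to 359.9 CPM in WT brains, and their part in the *slc7a5* result was not tested.

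**Figure D3:**
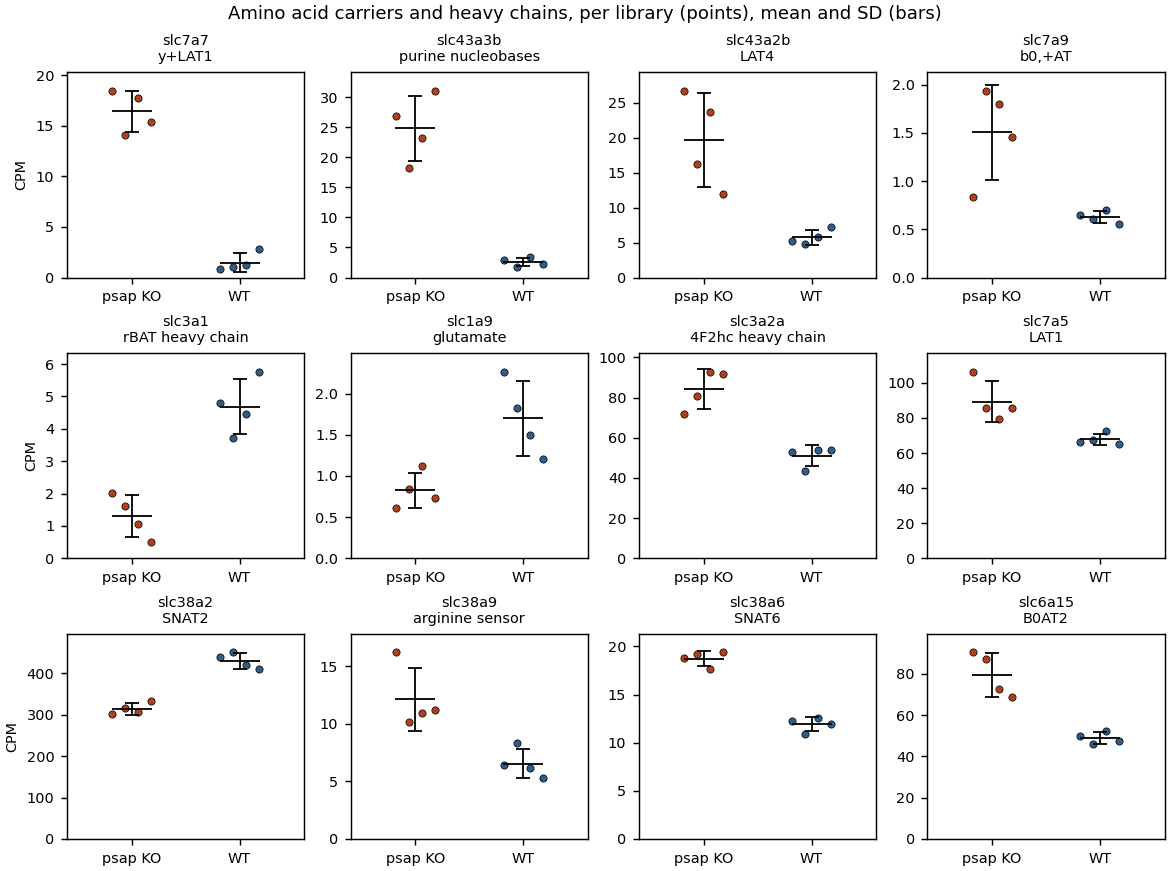
Level of 12 heavy chain and amino acid carrier genes in every library (y axis, CPM from 0; points), *psap* KO left of WT, with bars at the mean and SD of 4 libraries. *slc7a7* and *slc43a3b* have the largest fold changes, 10.8 and 9.44, with 14.1 to 18.4 and 18.2 to 31.0 CPM in *psap* KO brains against 0.81 to 2.84 and 1.82 to 3.34 CPM in WT brains.

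The other neutral amino acid carriers included members of both directions. *slc6a15*, a neuronal carrier of leucine, proline and related amino acids in mammals, was higher, with 90.4, 87.0, 72.4 and 68.7 CPM in *psap* KO brains and 49.95, 46.0, 52.5 and 47.6 CPM in WT brains. The log2 fold change was 0.70 (SE 0.0938, adjusted p = 8.93e-05 by edgeR's quasi-likelihood test). Its vesicular relative *slc6a17* was called lower by a small margin (-0.19, adjusted p = 0.0384), and 7 of 15 alternative settings lost the call (adjusted p of 0.0104 to 0.1199). *slc1a5*, the ASCT2 glutamine exchanger, was higher at 0.31 (adjusted p = 0.0192), a call lost without WT replicate 3 (adjusted p = 0.0579, the highest over all alternatives), and *slc1a4*, the serine exchanger ASCT1, was not called at -0.11. The Asc-1 paralogs, which exchange glycine and serine in mammals, moved apart. *slc7a10a* had 36.2, 24.7, 35.6 and 42.1 CPM in *psap* KO brains and 51.0, 50.4, 64.3 and 81.9 CPM in WT brains (log2 fold change -0.84, adjusted p = 0.00719), and *slc7a10b* had 21.9, 23.7, 24.7 and 26.2 CPM in *psap* KO brains and 16.9, 18.1, 19.97 and 20.4 CPM in WT brains (log2 fold change 0.36, adjusted p = 0.00755).

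Of 5 members with no assigned substrate, *slc6a16a*, *slc6a16b* and *slc6a22.1* were higher, *slc7a4* was lower and *slc6a22.2* was not called. *slc6a16a* had 8.52, 11, 10.1 and 6.74 CPM in *psap* KO brains and 4.81, 5.399, 4.49 and 4.23 CPM in WT brains, with no overlap (log2 fold change 0.95, adjusted p = 0.000654 by edgeR's quasi-likelihood test). *slc6a22.1* was called at 0.49 (adjusted p = 0.0248) although *psap* KO replicate 1, at 24.1 CPM, lay within the WT range of 22.4 to 28.2 CPM, and 6 of 15 alternative settings lost the call (adjusted p of 0.000264 to 0.0743). It was the only called transporter whose libraries overlapped. *slc6a14* and *slc6a19b*, broad neutral carriers of epithelia in mammals, did not have enough reads in enough libraries to pass the count filter. They were not tested in the main fit. *slc6a14* stood at 0.39, 0.396, 0.826 and 4.56 CPM in *psap* KO brains and 0.432, 0.337, 0.264 and 0.186 CPM in WT brains, so that *psap* KO replicate 4 alone was high. Of 5 tested markers of absorptive epithelium, *lrp2a* was higher (84.6 to 99.9 CPM in *psap* KO brains, 56.6 to 73.4 CPM in WT brains) and the other 4 were not called. The summed level of the list, 99.1 to 116.9 CPM in *psap* KO brains and 69.9 to 85.4 CPM in WT brains, is mostly that of *lrp2a*.

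The sodium-coupled glutamine carriers of the slc38 family were mixed, with 2 higher and 3 lower of the 9 outside the lysosome. *slc38a2*, the gene for the amino acid responsive SNAT2, was lower, with 303, 316, 306 and 334 CPM in *psap* KO brains and 440.0, 451, 420.5 and 409 CPM in WT brains. The groups were clearly apart (log2 fold change -0.45, SE 0.0615, adjusted p = 0.000102 by edgeR's quasi-likelihood test). *slc38a4*, a system A relative, was lower at -0.51 (adjusted p = 0.000642). SNAT3, which releases glutamine from astroglia, has a pair of genes here, of which *slc38a3b* was lower at -0.50 (adjusted p = 0.00617) and *slc38a3a* was not called at -0.19 (adjusted p = 0.0989). *slc38a6* was higher, with 18.8, 19.2, 17.6 and 19.4 CPM in *psap* KO brains and 12.3, 10.9, 12.5 and 11.9 CPM in WT brains. Its replicates were tight in both genotypes, and the log2 fold change was 0.65 (SE 0.0864, adjusted p = 8.05e-05). *slc38a10* was higher at 0.42 (adjusted p = 0.000655).

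Of 4 carriers counted in the lysosomal and proton-coupled class, *slc38a9*, *slc38a7* and *slc36a1* were higher. This class does not hold every lysosomal carrier. *slc7a14a* and *slc7a14b*, lysosomal carriers of neurons in mammals, were counted with the cationic carriers. Of this pair, *slc7a14a* was called lower (-0.28, adjusted p = 0.0162 by edgeR's quasi-likelihood test) and *slc7a14b* was not called. *slc38a9* encodes the lysosomal arginine sensor that signals to mTORC1, and it had 16.2, 10.1, 10.9 and 11.2 CPM in *psap* KO brains and 6.42, 8.30, 6.16 and 5.30 CPM in WT brains. All KO libraries were above all WT libraries (log2 fold change 0.89, SE 0.175, adjusted p = 0.00147 by edgeR's quasi-likelihood test). *slc36a1*, the gene for the proton-coupled exporter PAT1, had 55.0, 45.0, 42.7 and 42.2 CPM in *psap* KO brains and 33.8, 32.4, 35.4 and 38.3 CPM in WT brains (log2 fold change 0.40, adjusted p = 0.00509). *slc38a7*, which exports glutamine from lysosomes in mammals, had 29.7, 30.3, 27.3 and 28.2 CPM in *psap* KO brains and 19.5, 20.2, 23.1 and 21.4 CPM in WT brains (log2 fold change 0.46, adjusted p = 0.00069). A gene model that overlaps *slc38a7* on its own strand was also higher, as given below, and its part in this result was not tested. *slc36a4* was not called at -0.23 (adjusted p = 0.0785) but was called lower without *psap* KO replicate 1 (-0.33, adjusted p = 0.0054, within 0.0054 to 0.197 over all alternatives).

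Zebrafish keep many of these genes as pairs of paralogs, and a pair can be compared within each library, where depth and scaling cancel. For 17 pairs the log2 ratio of one gene over the other was taken in every library, a comparison chosen after the values had been seen. The ratio did not overlap between genotypes for 4 pairs, all with a lower ratio in *psap* KO brains. This shared direction depends on which paralog is written first. The second gene was higher in *slc43a3* (3.24), *slc43a2* (1.76) and *slc7a10* (0.36), and the first was lower in *slc7a10* (-0.84) and *slc6a6* (-0.30). The *slc43a3a* over *slc43a3b* ratio was -4.29, -3.65, -4.21 and -5.17 in *psap* KO brains and -0.98, -0.22, -1.19 and -0.94 in WT brains. For *slc7a10a* over *slc7a10b* it was 0.72, 0.06, 0.52 and 0.68 in *psap* KO brains and 1.59, 1.47, 1.68 and 2.00 in WT brains, and for *slc43a2a* over *slc43a2b* 1.59, 1.72, 1.89 and 2.00 in *psap* KO brains and 2.95, 3.06, 2.98 and 2.94 in WT brains. The mean differences were -3.50, -1.19 and -1.18 for these pairs and -0.31 for *slc6a6a* over *slc6a6b*. Each had p = 0.0286 in an exact two-sided permutation test, which became 0.121 after adjustment over the 17 pairs. Since 0.0286 is the smallest p that 4 libraries against 4 allow, hardly any outcome could have passed 0.05 after this adjustment, and the ratios are given as a description.

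**Figure D4:**
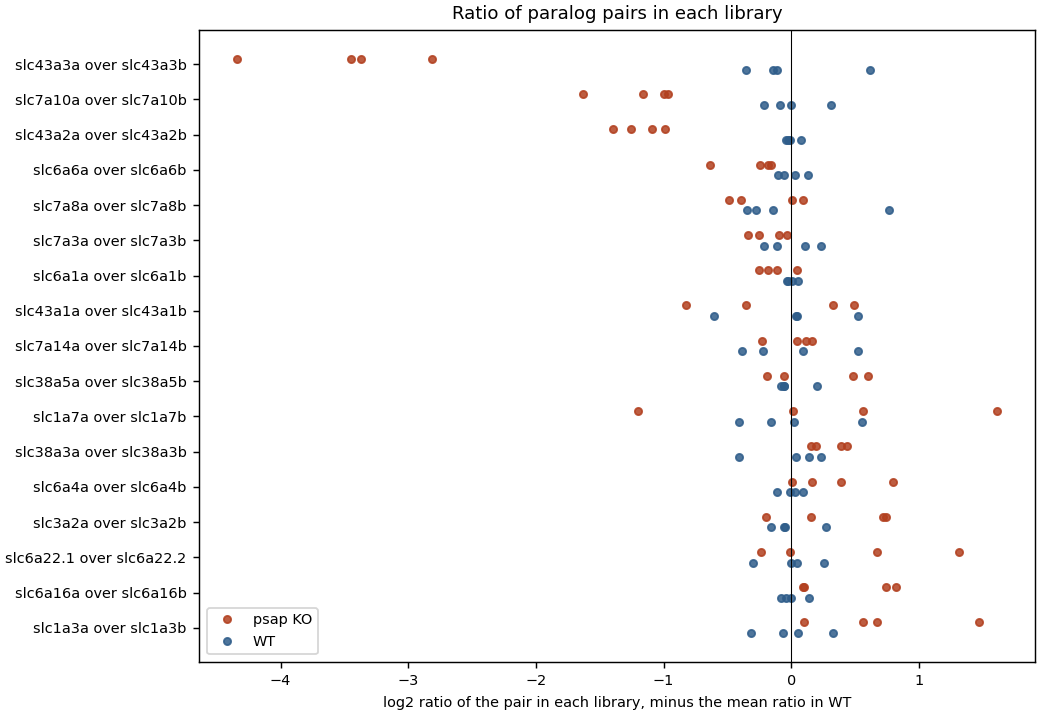
Log2 ratio of 17 paralog pairs in every library (x axis, after subtracting the pair's mean ratio in WT), with the red *psap* KO points drawn above the blue WT points of each pair. The ratios of *slc43a3*, *slc7a10*, *slc43a2* and *slc6a6* are lower in every *psap* KO library than in any WT library, with mean differences of -3.50, -1.19, -1.18 and -0.31.

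Some transporter genes lie close together on a chromosome, and a few pairs are given as examples, without a check for genes between them. Coordinates are those of the deposited annotation columns, which name no build, and the study's methods name Zv10 with Ensembl gene models. On chromosome 11, *slc6a1b* (997100 to 1024483, minus strand) was lower, and *slc6a11b* (1094844 to 1131569, minus strand) was higher. On chromosome 7, *slc7a10a* (38315647 to 38340674, minus strand) was lower, and *slc7a9* (38507006 to 38527833, plus strand) was higher. On chromosome 4, *slc38a4* (1516716 to 1566572) and *slc38a2* (1600034 to 1617897) were both lower. On chromosome 6, *slc6a22.1* (41118910 to 41138855, minus strand) was higher, and *slc6a22.2* (41144155 to 41161017, plus strand) was not called. A gene on the opposite strand overlapped 17 of the 70 genes, 10 of them called. For comparison, 54.4% of all tested transporters and 40.8% of all genes tested were called. The strand setting used for counting is not given in the sources used here, so reads of such partners may be mixed. *slc6a1a*, *slc6a9*, *slc7a10a* and *slc43a2b* are among the 17 genes. Their partners *vgll4a*, *ccdc24*, BX323855.1 and CU467963.1 had mean levels of 12.4, 3.02, 0.94 and 1.04 CPM in *psap* KO brains. In WT brains these were 10.1, 2.84, 0.84 and 0.358 CPM. *slc1a6*, *slc43a2b* and *slc38a7* overlap other gene models on their own strand. That of *slc38a7*, si:ch211-122f10.4, was higher at 1.36 on the log2 scale, with means of 17.5 CPM in *psap* KO brains and 6.82 CPM in WT brains. The means of *slc38a7* itself were 28.9 and 21.0 CPM, and whether reads of this partner entered its count was not tested.

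Lists of genes related to the same substrates outside these families were counted by the same test, with log2 fold changes in brackets. For comparison, 22.3% of all genes tested were higher and 18.5% lower. Of 10 genes that load transmitters into vesicles, none was higher and 4 were lower, namely the vesicular glutamate transporter genes *slc17a6a* (-0.44), *slc17a6b* (-0.43) and *slc17a7a* (-0.61) and the vesicular GABA transporter gene *slc32a1* (-0.67), and the median over the list was -0.31. Of 8 markers of glutamate neurons, which include the *slc17a* genes, 4 were lower, with a summed level of 855.4 to 1059 CPM in *psap* KO brains and 1275 to 1403 CPM in WT brains. Of 15 enzymes of glutamine, glutamate and GABA metabolism 4 were higher and 6 were lower, with a median of -0.11. The glutamine synthetase genes *glula* (0.38) and *glulb* (0.46), the glutamate dehydrogenase gene *glud1a* (0.90) and the GABA transaminase gene *abat* (0.37) were higher. The GABA synthesis genes *gad1a* (-0.77), *gad1b* (-0.77) and *gad2* (-0.91) were lower, together with *glsb* (-0.34), *glulc* (-0.73) and *got1* (-0.31).

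Of 15 genes of serine, glycine and cysteine synthesis and use 10 were higher, among them *phgdh* (1.05), the first enzyme of serine synthesis, and *gclc* (0.33), the catalytic subunit of glutathione synthesis, and 1, *cbsb* (-0.29), was lower, with a median of 0.35. Atf4 is a transcription factor that is active when amino acids run short, among other conditions. Whether it was active in these brains was not tested. Of 22 genes listed as Atf4 factors or targets other than carriers 14 were higher and 2, *vldlr* and *stc2a*, were lower, with a median of 0.61. *atf3* (3.72), *ddit3* (1.13) and *trib3* (0.99) were among the higher ones, *trib3* at 63.9, 25.4, 32.4 and 26.9 CPM in *psap* KO brains. The other 6 genes were not called. These were the asparagine synthetase gene *asns* (0.17, adjusted p = 0.265 by edgeR's quasi-likelihood test), *chac1* (-0.31), *ddit4* (-0.25), *fgf21* (-0.76), *mthfd2* (-0.08) and *aldh1l2* (-0.03). Some genes, such as *phgdh* and *sesn2*, stand in more than a single list. Of 26 genes of amino acid sensing by mTORC1 17 (65.4%) were higher and none was lower, with a median of 0.35. Over all genes tested, 22.3% were higher and 18.5% lower. The higher ones included *rraga* (0.69), *rragca* (0.69), *lamtor5* (0.87), *flcn* (1.01) and *sesn2* (1.17). The list was not split into genes that promote and genes that restrain mTORC1, so its count gives no direction for the pathway. Of 20 genes listed as other amino acid and peptide carriers 7 were higher and 6 were lower, with a median of -0.07. Among the 20 is *slc29a3*, whose human counterpart carries nucleosides rather than amino acids or peptides. The higher ones were *slc25a38a* (1.95), *slc15a4* (1.43), *ctns* (1.03), *slc29a3* (0.97), *slc17a5* (0.64), *mfsd12a* (0.41) and *slc25a40* (0.37). The lower ones were *slc25a18* (-0.78), *slc32a1* (-0.67), *slc25a22a* (-0.56), *slc16a10* (-0.36), *slc25a12* (-0.34) and *slc25a39* (-0.28).

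**Figure D5:**
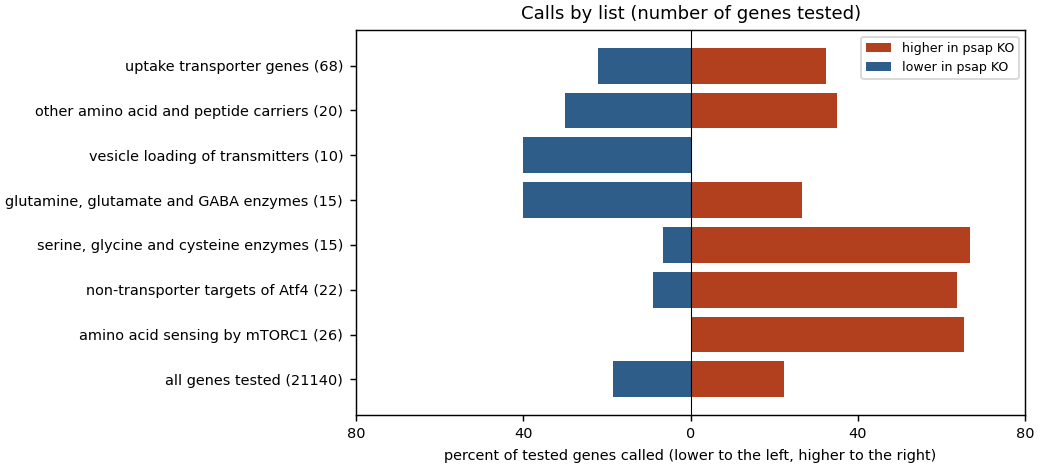
Percent of tested genes (x axis) called higher, drawn to the right, and lower, drawn to the left, in *psap* KO brains for the transporters, for related gene lists and for all genes tested. All genes stand at 22.3% higher and 18.5% lower, the transporters at 32.4% and 22.1%.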

How the data were processed

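Total RNA libraries (ribosomal RNA depleted, strand-keeping kit) were made from 4 *psap* KO and 4 WT pools of 3 brains. According to the labels and the study's methods, the authors removed optical duplicates, trimmed reads with cutadapt 1.16, aligned them with STAR 2.6.1b and assigned them to genes with featureCounts 1.6.3. The deposited values used here are raw counts per gene, not normalised, and 164697865 counts fell on 22871 genes, none with a total under 12. Columns of the authors' own comparison (fold changes and p-values) were not used. Groups and replicate numbers came from the sample labels.

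Counts were tested with edgeR 4.0.16 in R 4.3.3 (robust quasi-likelihood test, TMM, filterByExpr by genotype), and p-values were adjusted by Benjamini-Hochberg over 21140 genes, 1731 genes having been filtered out. Per-gene permutation tests were exact, on log2 CPM with a prior count of 2. Intervals are 95%. The pipeline was run on simulated counts in which far fewer genes changed than were called here. That run therefore does not measure error rates in these data. The pools are separate, but where nothing says that they came from separate clutches, p-values measure only the spread between these pools.

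Alternatives were RLE and upper-quartile scaling, no filter, a mean count of at least 50, DESeq2 1.42.0, limma-voom (limma 3.58.1), the replicate number as a block and leaving out each library. Members and gene lists were chosen with earlier results of these data known, so no list is independent support. Named members were those called with a log2 change of at least 1, the 2 of smallest p in each of 7 families, the transmitter carriers, and the subunits and carriers best known for mTORC1, the lysosome, cystine uptake and systems L and y+L. Members named outside this rule (*slc6a6a*, *slc6a6b*, *slc6a7*, *slc6a8*, *slc6a14*, *slc6a16a*, *slc6a16b*, *slc6a17*, *slc6a19b*, *slc6a22.1*, *slc1a4*, *slc1a5*, *slc7a4*, *slc7a10a*, *slc7a10b*, *slc7a14a*, *slc38a3a*, *slc38a3b*, *slc38a4*, *slc38a7*, *slc38a10*, *slc43a1b*, *slc43a2a* and those listed as not called) were singled out with their values in view. Among the 17 marker lists, those not quoted beside a result gave 6 higher and 1 lower of 10 for oligodendrocytes, 3 and 3 of 10 for mural and meningeal cells, 0 and 1 of 9 for skeletal muscle (74.3 to 740.0 CPM summed in WT brains, WT replicate 1 highest), 0 and 7 of 7 for erythrocytes, 3 and 0 of 5 for neutrophils, 4 and 0 of 4 for lymphocytes, 6 and 0 of 8 for ependyma, and none called of 5 each for pituitary and photoreceptors.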

Additional observations from a re-analysis of the deposited data

Results flagged for a closer look

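In groups of 4 libraries, a library far from the other 3 was found in 6 of 140 groups checked, where chance alone gives about 1 in 20. *slc6a14* stood at 4.56 CPM in *psap* KO replicate 4 and at 0.39 to 0.826 CPM in the other *psap* KO libraries. *slc6a2* was lowest in *psap* KO replicate 1, at 21.7 CPM against 24.9 to 25.6 CPM in the other *psap* KO libraries, and *slc6a9* was lowest in *psap* KO replicate 4, at 239 CPM against 260.5 to 265 CPM. In WT brains, *slc3a2a* was lowest in replicate 2 (43.5 CPM, others 52.8 to 54.1 CPM), *slc6a8* was lowest in replicate 4 (105 CPM, others 122 to 126 CPM), and *slc7a14a* was highest in replicate 3 (164 CPM, others 138 to 142 CPM). The causes were not tested.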

How the results depend on the processing

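Of the 37 called transporters, 31 kept their call in each of the 15 alternative settings that tested them, and 6 lost it in at least 1, namely *slc1a5*, *slc1a9*, *slc6a17*, *slc6a22.1*, *slc7a14a* and *slc43a1b*. Of those not called, 5 were called in at least 1 setting, namely *slc1a2b*, *slc3a2b*, *slc7a3a*, *slc36a4* and *slc43a2a*. No named transporter was called in the opposite direction. Same-numbered libraries deviated together with correlations of 0.0575, 0.0705, 0.133 and 0.167. Between libraries of different numbers the correlations ran from -0.119 to 0.0735, and not every library correlated best with its own number. Whether libraries of a number share a batch is not known from these values. The main fit did not take the numbers as pairs, and a block by number is given as an alternative. With the replicate number as a block, 21 transporters were higher and 16 lower (median log2 fold change 0.02), 9337 genes were called against 8623, and *slc1a2b* was called (adjusted p = 0.0206 by edgeR's quasi-likelihood test, within 0.0206 to 0.274 over all alternatives). Counts of lower genes were 1 with a mean count of at least 50 in the slc1 family, the glutamate carriers, the neutral carriers and the Atf4 list, 1 with upper-quartile scaling in the neutral carriers and the Atf4 list, 2 with DESeq2 in the cationic carriers, and 2 with DESeq2, RLE scaling or limma-voom in the list of serine, glycine and cysteine enzymes. When each library was left out in turn, 20 to 22 transporters were higher and 13 to 16 lower. Counts of higher genes then ranged from 1 to 2 in the slc1 and slc3 families and the heavy chains, from 2 to 4 in the slc43 family and from 4 to 7 in the neutral carriers. Counts of lower genes ranged from 1 to 2 in the slc1 family, the glutamate carriers, the neutral carriers, the serine, glycine and cysteine enzymes and the Atf4 list, from 0 to 1 in the slc36 family and the lysosomal carriers, and from 0 to 2 in the cationic carriers. The causes of these shifts were not tested. *slc6a14* and *slc6a19b* did not have enough reads in enough libraries to pass the count filter of the main fit.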
